A study of Homo sapiens with 12 samples.

Results

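The cytochrome P450 genes were taken as every gene whose symbol is CYP followed by a number, letters and a number, with CYP51A1 left out, which gave 54 of the 19677 genes in the deposited count tables. Membership rested on the symbol alone and used no measured value, but the set was chosen with earlier results of these data known. RNA was sequenced from CAOV3, an established human ovarian cancer cell line labelled as high-grade serous epithelial and wild type, grown in medium with fetal bovine serum. The 12 libraries formed 4 groups of 3 replicates: control cells given DMSO, the solvent; cells given 10% ovarian cancer ascites (the fluid that collects in the abdomen) and DMSO; cells given 200 uM bezafibrate, a fibrate drug that activates PPAR receptors; and cells given bezafibrate and ascites together. The labels of the 2 groups that received bezafibrate do not mention DMSO. Exposure was 16 h in the 3 treated groups, and the control labels give no duration. The study asked how ascites and bezafibrate alter transcription in ovarian cancer cells. All values come from 1 cell line, and the labels do not say whether replicates were separate cultures, so p-values measure the spread between these samples, which may be technical.

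P450 enzymes are heme proteins that insert oxygen into fat-soluble molecules, using electrons that most of them receive from the reductase POR. Some act on drugs and pollutants, others make or break down steroids, bile acids, fatty acid signals, vitamin D and retinoic acid. Liver is the organ best known for them, and many of the drug-oxidising genes are switched by ligand-activated receptors such as CAR (NR1I3), PXR (NR1I2), the PPARs and the aryl hydrocarbon receptor AHR.

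Library totals ran from 11831093 to 18762759 counts. On the first principal component, which held 37.0% of the variance, the 6 libraries with bezafibrate stood apart from the 6 without it. Combination replicate 3 stood apart on the second component, which held 9.88%. Its score was 22.4 against -9.84 to 4.37 in the other 11 libraries. Calls that needed this library are therefore marked below for P450 genes and for partner genes named by rule. Of the markers chosen for serous ovarian carcinoma, the keratins KRT8 and KRT18 were abundant, whereas PAX8 averaged 0.676 CPM (counts relative to library size, scaled by edgeR's TMM method), WT1 0.0880 CPM and MUC16 0.0598 CPM, and SOX17 had no count. The summed serous list was 5692 to 5801 CPM in control, 5857 to 6003 in ascites, 5868 to 6147 in bezafibrate and 6314 to 6408 in the combination. With bezafibrate over control PAX8, CLDN4 and KRT7 of that list were called higher and CDH6 lower. Among markers of other cells, PTPRC, CD3E and CD2 of white blood cells and HP and AHSG of hepatocytes had no count in any library. The summed hepatocyte list was 4.85 to 5.87 CPM in control, 4.51 to 5.34 in ascites, 4.58 to 5.70 in bezafibrate and 5.51 to 6.45 in the combination. All 4 tested fibroblast markers were lower with bezafibrate, and the summed level of that list was 231.8 to 244.1 CPM in control, 229.2 to 236.2 CPM in ascites, 187.0 to 199.5 CPM in bezafibrate and 184.1 to 199.2 CPM in the combination. The summed white blood cell list rose through CD68, from 76.6 to 80.3 CPM in control to 94.6 to 98.5 CPM with bezafibrate. The part of these marker shifts in the P450 results was not tested.

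Of the 54 P450 genes, 12 were expressed, with an average of 1 CPM or more over the 12 libraries. They were CYP2B6, CYP2S1, CYP27C1, CYP20A1, CYP26B1, CYP4V2, CYP2R1, CYP1A1, CYP2U1, CYP3A5, CYP1B1 and CYP27B1. The lowest of these, CYP27B1, averaged 1.27 CPM, and the gene just under the threshold, CYP24A1, averaged 0.785 CPM. Another 24 genes had at least 1 count but averaged below 1 CPM, and 18 had no count in any library, which allows a mean of up to 0.0173 CPM (3 counts over the 12 libraries, counting error only). The genes without a count included the steroidogenic CYP17A1, CYP11B1 and CYP11B2, the bile acid enzymes CYP7A1 and CYP7B1, the nicotine oxidase CYP2A6 and the fatty acid hydroxylase CYP4A11.

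**Figure D1:**
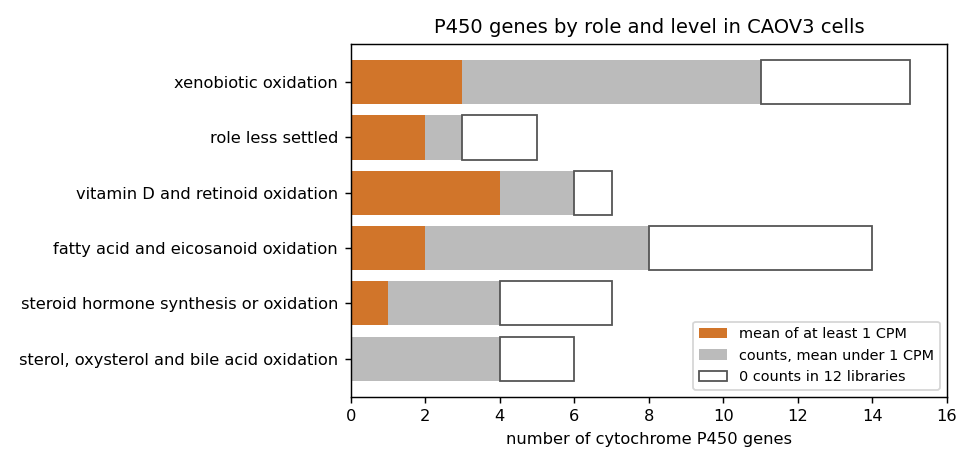
Number of P450 genes (horizontal axis) in each role (vertical axis), split into genes that averaged 1 CPM or more over the 12 libraries, genes with counts below that level, and genes with 0 counts in all 12 libraries. The vitamin D and retinoid group had 4 of 7 genes above the threshold, and the sterol, oxysterol and bile acid group had 0 of 6.

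By role, 3 of 15 xenobiotic-oxidising genes were expressed, 2 of 14 that oxidise fatty acids and eicosanoids, 4 of 7 that act on vitamin D or retinoids, 1 of 7 that make or oxidise steroid hormones, none of 6 that act on sterols, oxysterols and bile acids, and 2 of 5 whose role is less settled. Since longer transcripts yield more counts, levels were compared between genes per kilobase of the longest coding transcript in GENCODE v29. On that scale CYP2B6 averaged 80.8 CPM per kilobase, with a range over libraries of 62.5 to 100.1. CYP20A1 at 16.7 and CYP2S1 at 16.2 CPM per kilobase followed and overlapped each other over the libraries. CYP27C1 at 7.74, CYP26B1 at 5.97 and CYP4V2 at 5.87 CPM per kilobase formed the next tier, each overlapping its neighbour in the order. CYP2R1 at 3.35 and CYP1A1 at 2.65 CPM per kilobase overlapped, as did CYP3A5 at 1.09 and CYP2U1 at 0.790. CYP27B1 at 0.499 and CYP1B1 at 0.479 CPM per kilobase were lowest and overlapped each other and CYP2U1.

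Summed over the 54 genes, P450 RNA amounted to 381 ± 9.50 CPM in control (SD, n = 3, as for each group below), 376 ± 7.82 CPM in ascites, 493 ± 3.44 CPM in bezafibrate and 482 ± 10.7 CPM in the combination. CYP2B6 alone supplied 53.3% of these counts in control, 52.1% in ascites, 61.9% in bezafibrate and 61.7% in the combination. Without CYP2B6 the sum was 178 ± 3.15, 180.2 ± 5.82, 188 ± 3.65 and 184 ± 5.87 CPM in the same order. The lowest bezafibrate sum without CYP2B6, 185.2 CPM, lay above the highest control sum, 181.1 CPM, while the combination and ascites libraries overlapped.

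**Figure D2:**
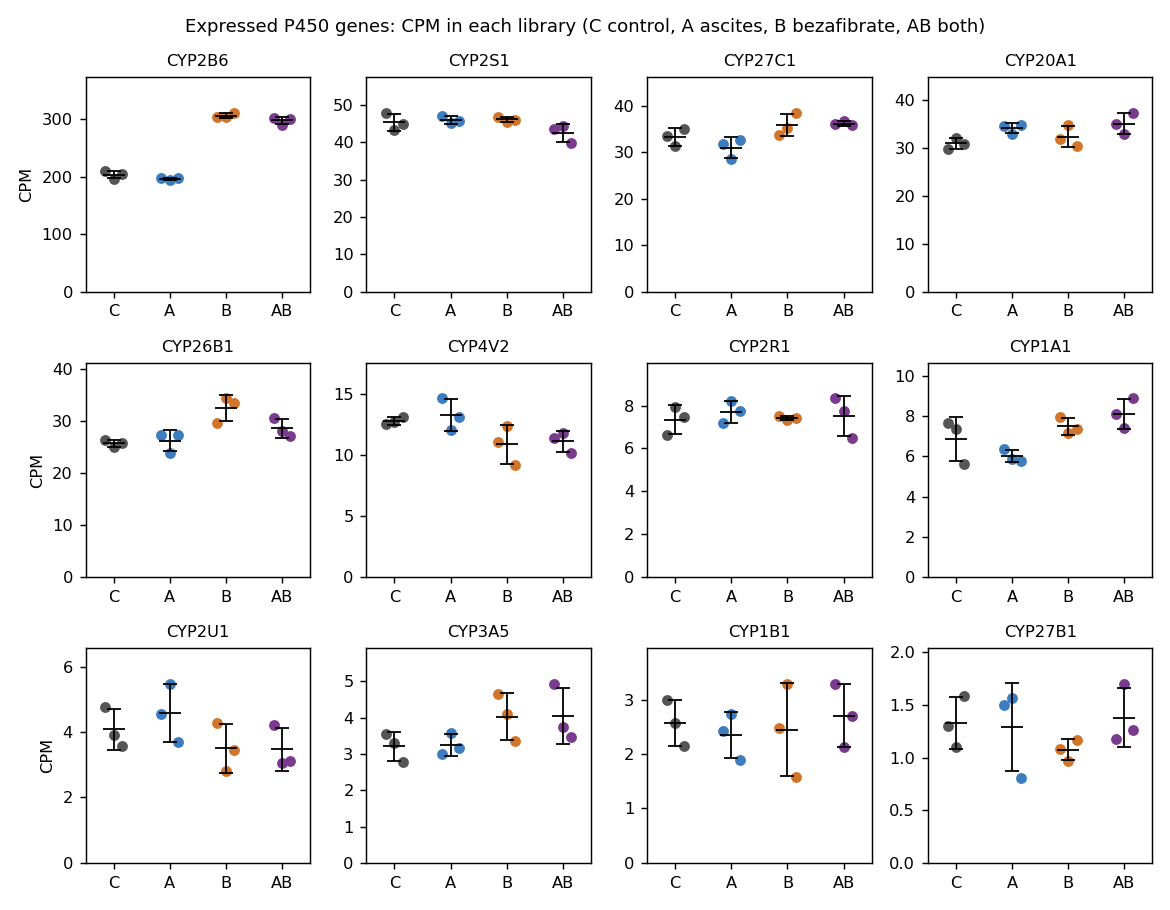
CPM (vertical axes, each from 0) of the 12 expressed P450 genes in each library, with C for control, A for ascites, B for bezafibrate and AB for both. Points are libraries and bars are the mean ± SD of 3. CYP2B6 lay between 193.8 and 209.0 CPM in the 6 libraries without bezafibrate and between 289.9 and 310.5 CPM in the 6 with it.

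CYP2B6, which oxidises drugs such as bupropion and cyclophosphamide, was the P450 gene with the clearest response to bezafibrate. It stood at 209, 196 and 204 CPM in control and at 197, 194 and 198 CPM in ascites. It stood at 303, 303 and 311 CPM in bezafibrate and at 302, 289.9 and 300.2 CPM in the combination. Every library with the drug was higher than every library without it. The change was 1.50-fold over control (log2 fold change 0.59, SE 0.032, edgeR adjusted p = 2.72e-17) and 1.52-fold over ascites when ascites was present (0.60, SE 0.033, edgeR adjusted p = 2.24e-17). These 2 effects differed by 0.01 on the log2 scale, with a 95% interval of -0.08 to 0.11. Without combination replicate 3 the change over ascites was 0.59. Ascites over control gave -0.05 for CYP2B6 on the log2 scale, with a 95% interval of -0.12 to 0.02 and an edgeR adjusted p of 0.910. In bulk RNA, more transcript per cell and more cells that express the gene cannot be told apart. The gene lies at chr19:40991250-41018398 on the plus strand (GRCh38, GENCODE v29), and 10.1% of its 50-base exonic windows recur in another gene, mainly the pseudogene CYP2B7P, which was not analysed here. Reads from those windows are uncertain.

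CYP1A1, a textbook target of AHR that oxidises polycyclic hydrocarbons, was called higher in the combination over ascites. Its levels were 7.64, 7.35 and 5.63 CPM in control and 6.34, 5.85 and 5.79 CPM in ascites. They were 7.96, 7.16 and 7.35 CPM in bezafibrate and 8.09, 7.39 and 8.86 CPM in the combination. The combination lay above ascites without overlap, whereas bezafibrate and control overlapped. CYP1A1 rose 1.35-fold in the combination over ascites (log2 fold change 0.44, SE 0.13, edgeR adjusted p = 0.0184). Without combination replicate 3, the library that stood apart, that value was 0.38 with an edgeR adjusted p of 0.0756, and the call was also lost without ascites replicate 2 (0.0592) or 3 (0.0725) and with DESeq2 (0.0701). Over control, bezafibrate gave 0.12 with an edgeR adjusted p of 0.629. The difference between these 2 effects was 0.32 with a 95% interval of -0.06 to 0.70 (edgeR adjusted p = 0.999), so a difference was not shown. The averaged change was 0.28 (SE 0.093, edgeR adjusted p = 0.0228), and 0.25 without combination replicate 3 (edgeR adjusted p = 0.0533). That call was also lost without control replicate 3 (0.0914), ascites replicate 3 (0.0526) or bezafibrate replicate 1 (0.0622) and with DESeq2 (0.0768).

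CYP3A5, a drug and steroid oxidase, did not pass the test in any comparison. It averaged 3.21 ± 0.394 CPM in control, 3.25 ± 0.309 in ascites, 4.03 ± 0.640 in bezafibrate and 4.04 ± 0.779 in the combination. Averaged over both backgrounds, its log2 fold change with bezafibrate was 0.34 (SE 0.13, edgeR adjusted p = 0.0521), just above the threshold of 0.05. That value came to an edgeR adjusted p of 0.0442 when counts were summed by subfamily before the fit. The averaged effect of CYP3A5 was also called in 5 of the 12 fits with a library left out, among them that without combination replicate 3. Its near relative CYP3A4, the main drug-oxidising P450 of liver, had 1 count in each of 2 libraries and none in the other 10.

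The sequence upstream of the 3 P450 genes that rose in the combination over ascites is shown so that their promoters can be compared. Each is the 250 bases before the first listed RefSeq transcription start in GRCh38.p14, read 5′ to 3′ on the gene's own strand. The windows of CYP2B6 and CYP1A1 reach into these genes as GENCODE v29 places them. That of CYP27C1 stops before its GENCODE start, so the bases next to that start are not in it. Distances thus depend on the start used. The windows lie at chr19:40991032-40991281 on the plus strand for CYP2B6, chr2:127220300-127220549 on the minus strand for CYP27C1 and chr15:74725529-74725778 on the minus strand for CYP1A1. Capitals mark AGGTCA, the core that nuclear receptors bind, GCGTG, the core that AHR binds, and TATAAA, each searched on both strands.
CYP2B6: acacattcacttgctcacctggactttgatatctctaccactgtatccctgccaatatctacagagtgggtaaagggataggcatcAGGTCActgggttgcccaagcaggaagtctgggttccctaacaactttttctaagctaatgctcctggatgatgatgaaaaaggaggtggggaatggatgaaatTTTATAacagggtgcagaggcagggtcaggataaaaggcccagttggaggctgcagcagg
CYP27C1: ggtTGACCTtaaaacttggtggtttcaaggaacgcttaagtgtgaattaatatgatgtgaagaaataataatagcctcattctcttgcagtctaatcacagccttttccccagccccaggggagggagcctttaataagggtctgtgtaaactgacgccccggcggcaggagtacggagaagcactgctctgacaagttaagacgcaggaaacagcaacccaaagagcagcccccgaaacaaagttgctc
CYP1A1: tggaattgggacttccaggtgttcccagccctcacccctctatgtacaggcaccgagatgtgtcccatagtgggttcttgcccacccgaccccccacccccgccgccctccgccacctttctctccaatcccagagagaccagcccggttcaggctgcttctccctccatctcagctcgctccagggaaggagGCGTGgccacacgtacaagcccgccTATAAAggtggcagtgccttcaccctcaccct

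CYP2B6 held the nuclear receptor core 164 bases before its start and TATAAA, read on the other strand, 60 bases before it. CYP27C1 held the nuclear receptor core on the other strand 247 bases before its start and no TATA element. CYP1A1 held the AHR core 57 bases and the TATA element 32 bases before its start, and no nuclear receptor core. The nuclear receptor core was present in 12.1% of the 35116 upstream windows of this length in the RefSeq table, the AHR core in 32.2% and the TATA element in 10.7%. Among the 51 windows of the 38 P450 genes that matched the table, these were found in 13, 10 and 17 windows. A direct repeat of the nuclear receptor core with 1 base between the copies, the arrangement that PPAR binds with its partner RXR, was in 0 of the 51 windows and in 0.0171% of all windows. A match describes letters only, and a missing match says only that these letters are not in this window.

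CYP26B1, which breaks down retinoic acid, rose with bezafibrate over control. It measured 26.3, 25.1 and 25.7 CPM in control and 27.3, 23.9 and 27.4 CPM in ascites. It measured 29.7, 34.3 and 33.4 CPM in bezafibrate and 30.5, 28.1 and 27.1 CPM in the combination. Bezafibrate libraries lay above all control libraries, and the combination overlapped ascites. The change over control was 1.26-fold (log2 fold change 0.34, SE 0.070, edgeR adjusted p = 0.000373), and the change in the combination over ascites was 0.13 (SE 0.073, edgeR adjusted p = 0.258). The difference between these 2 effects was -0.21, with a 95% interval of -0.41 to -0.0029 and an edgeR adjusted p of 0.999, so a difference was not shown. Averaged over both backgrounds the change was 0.23 (SE 0.051, edgeR adjusted p = 0.00041). The gene lies at chr2:72129238-72148038 on the minus strand.

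CYP27C1, which desaturates retinoids, had 33.4, 31.4 and 35.1 CPM in control and 31.7, 28.6 and 32.7 CPM in ascites. It had 33.8, 35.2 and 38.5 CPM in bezafibrate and 36.0, 36.7 and 35.8 CPM in the combination. All 3 combination libraries exceeded all 3 ascites libraries, while bezafibrate overlapped control. CYP27C1 rose 1.16-fold in the combination over ascites (log2 fold change 0.22, SE 0.066, edgeR adjusted p = 0.0169). The call was lost without ascites replicate 2, its lowest library (0.17, edgeR adjusted p = 0.133), and with DESeq2 (0.22, DESeq2 adjusted p = 0.0564). Over control, bezafibrate gave 0.10 (edgeR adjusted p = 0.306). The difference between these 2 effects was 0.11 with a 95% interval of -0.07 to 0.30, so a difference was not shown. The averaged change was 0.16 (SE 0.046, edgeR adjusted p = 0.00683), and without combination replicate 3 the change over ascites was 0.22 (edgeR adjusted p = 0.0181). The gene lies at chr2:127184120-127220078 on the minus strand.

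The vitamin D enzymes showed no change past the test. CYP2R1, which starts the activation of vitamin D, had group means of 7.33 to 7.71 CPM, and CYP27B1, which completes it, ranged from 0.808 to 1.70 CPM over the libraries. CYP24A1, which inactivates the hormone, was tested although it averaged below 1 CPM. Its levels were 0.545, 0.661 and 0.952 CPM in control, 1.07, 1.17 and 0.673 in ascites, 1.145, 1.02 and 0.687 in bezafibrate, and 0.645, 0.509 and 0.338 in the combination. The combination lay below both single treatments without overlap, at a total of 21 counts. Its log2 fold change was -0.89 over ascites (95% interval -1.73 to -0.06, edgeR adjusted p = 0.144). CYP26A1, the retinoic acid hydroxylase related to CYP26B1, was removed by the filter on low counts. It had 14, 12 and 4 counts in control, 6, 3 and 9 in ascites, 7, 4 and 5 in bezafibrate, and 3, 2 and 3 in the combination. The combination lay below control without overlap. In the fit with no filter CYP26A1 was called lower in the combination over control (log2 fold change -1.84, edgeR adjusted p = 0.0331). It was also called in 8 of the 10 fits with a library left out that tested it. It was not called without combination replicate 1 or 2. The filter removed it again without control replicate 1 or control replicate 2, its highest libraries. The 10 fits were thus kept by high control values, and their calls are no separate support.

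Among fatty acid hydroxylases, CYP4V2 was the only one of the 14 P450 genes kept by the filter that was called lower in the 7 comparisons over all 12 libraries, and only when both drug effects were averaged. It measured 12.54, 12.64 and 13.09 CPM in control, 14.60, 12.02 and 13.06 in ascites, 11.03, 12.38 and 9.21 in bezafibrate, and 11.38, 11.80 and 10.13 in the combination. Bezafibrate lay below control and the combination below ascites, in each case without overlap. The averaged log2 fold change was -0.24 (SE 0.076, edgeR adjusted p = 0.0178). Neither comparison passed on its own, with edgeR adjusted p of 0.175 over control and 0.114 over ascites, and the averaged call was lost without ascites replicate 1 (0.0747) or bezafibrate replicate 3 (0.0643) and with DESeq2 (0.0524). Exons of CYP4V2 overlap exons of KLKB1 on the same strand, and 7.68% of its 50-base windows recur in that gene. CYP2U1 ranged from 2.80 to 5.46 CPM and CYP4F3 averaged 0.685 CPM, and neither passed the test in any comparison.

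CYP1B1, which oxidises oestradiol, ranged from 1.58 to 3.28 CPM and passed no test, with a log2 fold change of -0.05 for bezafibrate over control and a 95% interval of -0.54 to 0.43. Of its windows, 10.2% recur in the antisense gene CYP1B1-AS1, whose reads could not be told apart without strand. CYP2S1, a carcinogen and lipid oxidase of epithelia, ranged from 39.7 to 47.9 CPM and passed no test. CYP20A1, an orphan enzyme with no agreed substrate, measured 29.9, 32.2 and 30.9 CPM in control and 35.1, 32.9 and 37.4 CPM in the combination, without overlap. In ascites it measured 34.7, 32.9 and 34.9 CPM and in bezafibrate 32.0, 34.8 and 30.6 CPM. It was called higher in the combination over control (1.13-fold, log2 fold change 0.18, SE 0.066, edgeR adjusted p = 0.0493), a call lost in 15 of 18 alternative analyses, among them those without combination replicate 3 (0.14, edgeR adjusted p = 0.169) or control replicate 1 (0.174).

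The 14 P450 genes that passed the filter on low counts were read against all 12470 genes tested in the same fits. Bezafibrate over control called 2 of the 14, CYP2B6 and CYP26B1, where 17.6% of all tested genes were called, 10.1% higher and 7.55% lower. Its groups did not overlap for 3 of the 14, the 2 called genes and CYP4V2, and for 33.5% of all genes. The combination over ascites called 3 of the 14, CYP2B6, CYP27C1 and CYP1A1, where 17.8% of all genes were called, 10.5% higher and 7.29% lower. Here groups did not overlap for 6 of the 14, the 3 called genes with CYP4V2, CYP2S1 and CYP24A1, and for 30.5% of all genes. The combination over control called 2, CYP2B6 and CYP20A1, against 18.2% of all genes, 10.3% higher and 7.96% lower, and groups did not overlap for 5 of the 14 and 30.2% of all genes. With both drug comparisons averaged, 5 of the 14 were called (CYP2B6, CYP26B1, CYP27C1 and CYP1A1 higher and CYP4V2 lower), against 28.3% of all genes, 15% higher and 13.2% lower. Only CYP2B6 separated all 6 libraries with the drug from all 6 without it, as did 15.3% of all genes. Members thus passed at shares near those of all genes, 14.3%, 21.4%, 14.3% and 35.7% in that order. The median log2 fold change of the 14 was 0.05 for bezafibrate over control and 0.07 for the combination over ascites, and over all tested genes it was -0.0037 in both. The combination over control and bezafibrate over control share their control libraries, and the averaged effect is built from the same libraries as the other drug comparisons.

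Ascites over control called none of the 14, where 0.0882% of all genes were called, all lower. Groups did not overlap for 1 of the 14 and 12.7% of all genes. In the same comparison 1 of the 14, CYP20A1, had an unadjusted p under 0.05, against 749 of all 12470 genes. CYP20A1 gave 0.14 on the log2 scale (edgeR adjusted p = 0.816). The combination over bezafibrate also called none, where 0.128% of all genes were called, 0.0401% higher and 0.0882% lower. Groups did not overlap for 4 of the 14 (CYP2B6, CYP24A1, CYP27B1 and CYP2S1) and 9.27% of all genes. In this comparison 3 of the 14 had an unadjusted p under 0.05, against 597 of all 12470 genes. Those 3 were CYP26B1, CYP24A1 and CYP2S1, at -0.18, -0.89 and -0.11 on the log2 scale. The interaction, the test of whether the drug effect differed with ascites, called none of the 14 and 0.0% of all genes. For the interaction 2 of the 14, CYP24A1 and CYP26B1, had an unadjusted p under 0.05, against 445 of all 12470 genes. DESeq2 also called none of the 14 in these 3 comparisons. For CYP24A1 the interaction was -1.32 with a 95% interval of -2.45 to -0.20 and an edgeR adjusted p of 0.999.

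**Figure D3:**
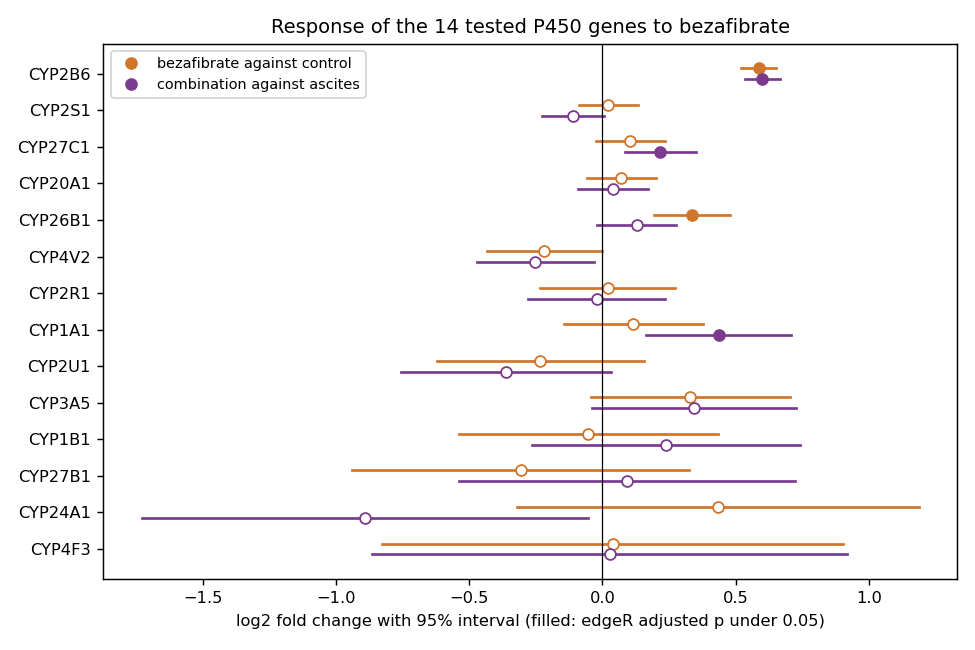
Log2 fold change with its 95% interval (horizontal axis) of the 14 tested P450 genes (vertical axis), for bezafibrate over control and for the combination over ascites, filled where the edgeR adjusted p was under 0.05. CYP2B6 stood at 0.59 and 0.60 with short intervals, and the intervals of the low genes CYP24A1 and CYP4F3 were the widest.

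Genes that work with P450 enzymes were followed from lists drawn up by role. Their counts with bezafibrate over control stand beside 10.1% of all tested genes called higher and 7.55% called lower. POR, the reductase that feeds electrons to the P450s of the endoplasmic reticulum, rose alongside CYP2B6, from 95.1 ± 0.941 CPM in control to 139.8 ± 1.55 CPM with bezafibrate (1.47-fold, log2 fold change 0.56, SE 0.042, edgeR adjusted p = 3.32e-13) and from 95.4 ± 4.43 in ascites to 140.3 ± 8.18 CPM in the combination (1.47-fold). It was the only 1 of 10 electron donors that changed in these 2 comparisons. Of 12 listed and tested genes of heme synthesis and breakdown, 3 rose with bezafibrate over control and none fell. ALAS1, which makes the precursor of heme, rose 1.29-fold, from 77.9 ± 3.70 to 99.9 ± 4.11 CPM. The heme-degrading HMOX1 rose 1.84-fold and the biliverdin reductase BLVRB 1.26-fold, the latter call being lost without control replicate 3, bezafibrate replicate 1 or bezafibrate replicate 3. In the combination over ascites these 3 and UROS, another heme synthesis enzyme, were called higher. Whether the UROS call needed combination replicate 3 was not examined. The call on HMOX1 (0.45, edgeR adjusted p = 0.0464) was lost in 11 of 18 alternative analyses, among them that without combination replicate 3. The call on BLVRB was lost without ascites replicate 3.

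Receptors known to control P450 genes moved in both directions. Of 21 listed, 17 were tested, and 3 rose and 6 fell with bezafibrate over control, where 17.6% of all tested genes were called either way. The oxysterol receptor NR1H3 rose 2.14-fold, from 10.3 ± 1.32 to 22.1 ± 1.72 CPM, and PPARD rose 1.54-fold. RARB, a retinoic acid receptor, fell by 0.65 on the log2 scale and the repressor NR0B2 fell by 0.50. AHR was abundant and fell by 0.19, from 309 ± 5.33 to 271 ± 7.43 CPM (edgeR adjusted p = 0.000327). PPARG fell by 0.39, and PPARA, the receptor through which fibrates act in liver, averaged 5.27 CPM and gave 0.09 on the log2 scale (edgeR adjusted p = 0.777). The receptors best known for CYP2B6, NR1I3 and NR1I2, had 32 and 22 counts in all 12 libraries together, at means of 0.184 and 0.123 CPM, and were not tested. Of 5 tested AHR targets outside the family (8 listed), none rose and NFE2L2 fell by 0.12 with bezafibrate over control, a call lost without control replicate 2, bezafibrate replicate 1 or bezafibrate replicate 3. In the combination over ascites NQO1 rose and AHRR fell. Whether either call needed combination replicate 3 was not examined.

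Enzymes that share substrates with the P450s changed as follows with bezafibrate over control, again beside 10.1% of all tested genes higher and 7.55% lower. Of 9 tested genes (12 listed) of the retinoic acid axis, 3 rose and 3 fell: the carrier RBP4 rose 1.46-fold and the retinol receptor STRA6 1.37-fold, while RARB fell as above and ALDH1A3, which makes retinoic acid, fell by 0.47 on the log2 scale. Of 8 tested eicosanoid enzymes (16 listed), the prostaglandin synthase PTGES rose 1.88-fold and the prostaglandin-degrading HPGD 1.62-fold, while the cyclooxygenase PTGS2 fell by 0.63 and the phospholipase PLA2G4A by 0.19. The PLA2G4A call was lost without control replicate 1 or 2 or bezafibrate replicate 2 and with DESeq2. Of 12 tested steroid and oxysterol enzymes (18 listed), 5 rose and none fell, among them AKR1C1 (1.88-fold), HSD17B4 (1.51-fold) and STS (1.43-fold). Reads of AKR1C1 and its near-identical relative AKR1C2 may be split between them. HSD3B1, a steroid dehydrogenase and another of these 5, had 1, 2 and 0 counts in control and 15, 23 and 16 with bezafibrate. That is a ratio of 14.8 with an exact counting interval of 4.80 to 74.0, which leaves out the spread between replicates. HSD3B1 passed the filter on low counts only through libraries with the drug, where it was high. Of 12 tested conjugating enzymes (16 listed), which act after the P450s, MGST3, MGST2 and MGST1 rose and UGT2B7 fell by 0.37. The MGST1 call was lost without control replicate 1 or bezafibrate replicate 1 or 2, and the UGT2B7 call without control replicate 1 or bezafibrate replicate 3 and with DESeq2. The median log2 fold change with bezafibrate over control was 0.0023 for electron donors, 0.01 for heme genes, -0.06 for receptors, -0.05 for AHR targets, -0.14 for the retinoic acid axis, 0.04 for eicosanoid enzymes, 0.22 for steroid enzymes and 0.14 for conjugating enzymes, beside -0.0037 for all tested genes. RARB, AHRR and UGT1A6 each stand in 2 of the lists. No gene of these 8 lists was called with ascites over control.

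**Figure D4:**
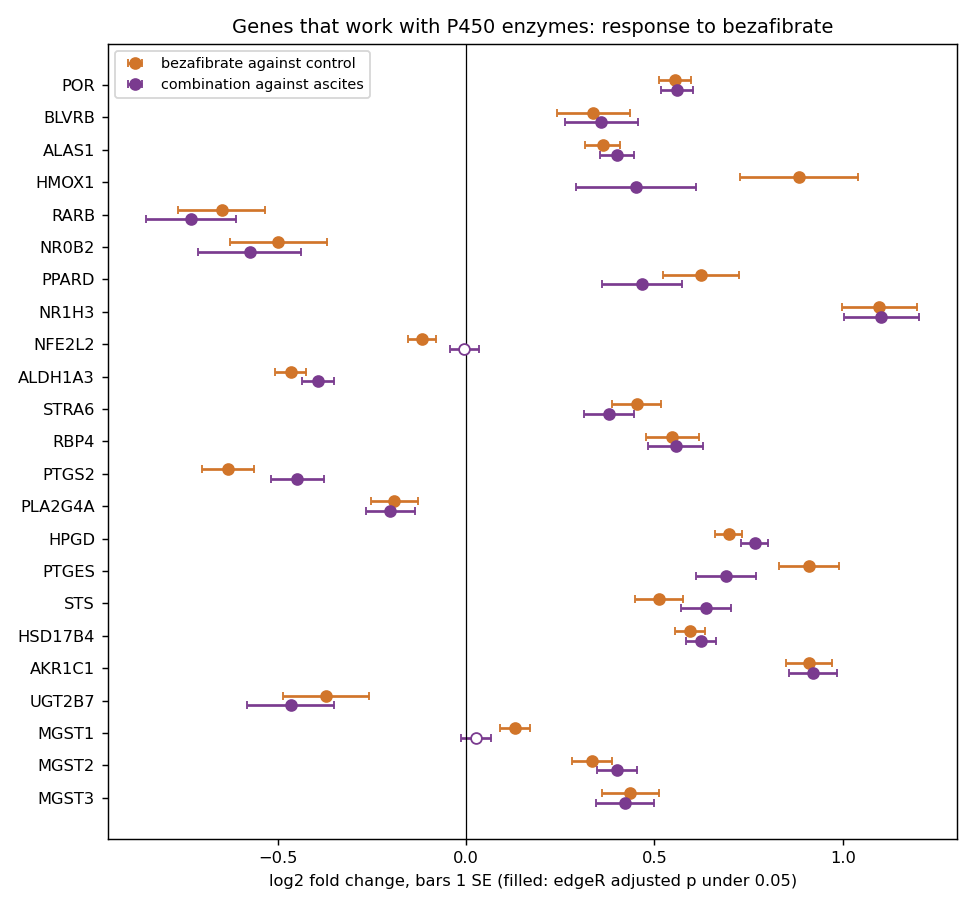
Log2 fold change with 1 SE (horizontal axis) of the partner genes named by rule (vertical axis), for bezafibrate over control and for the combination over ascites, filled where the edgeR adjusted p was under 0.05. POR stood at 0.56 in both comparisons, NR1H3 at 1.10 in both and RARB at -0.65 and -0.73. HSD3B1 is left out because its control counts were near 0.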

How the data were processed

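RNA was measured in 12 CAOV3 libraries. The authors deposited 1 table of whole-number gene counts per library, with no normalization. Trimmomatic 0.39, STAR 2.7.9a, RSEM 1.3.3, DESeq2 1.28.1 and build GRCh38 are listed in the submitters' processing notes, without their roles. Strand, annotation and any rounding of RSEM estimates are not given in the sources used here. Rows whose symbol is an identifier (346) were kept. Counts were fitted with edgeR 4.0.16 in R 4.3.3 (quasi-likelihood test, robust, TMM scaling, 1 mean per group over all 12 libraries, 8 residual degrees of freedom) after filterByExpr with a minimum count of 10 and total of 15, which left 12470 genes. P-values were adjusted by Benjamini-Hochberg over those genes and called under 0.05. On simulated counts for bezafibrate against control (12389 genes), 100 genes were changed by 0.5 and 100 by 1 on the log2 scale. Of these, 77% and 98% were recovered. Of 12189 unchanged genes, 17 were called. A far smaller share of genes changed there than the 17.6% called in the data, so these figures give no error rate for the real calls. The changed genes were drawn at random over all levels of expression, so the recovered shares do not describe low P450 genes. In that comparison the SE was 0.37 for CYP24A1 and 0.43 for CYP4F3. Alternatives were RLE and upper-quartile scaling, no filter, a replicate block, only the groups compared, DESeq2 1.42.0, summed subfamilies, other expression thresholds and each library left out.

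The 54 members, their roles, the 8 lists of related genes and the marker lists were chosen with earlier results of these data known. Every P450 gene of at least 1 CPM was named, lower ones where called, and otherwise counted by role. Of each related list, the 2 largest and 2 smallest changes among genes called with bezafibrate over control were named. CYP24A1, CYP4F3, CYP26A1, CYP3A4, CYP39A1 and other low genes, the marker genes, AHR, PPARA, PPARG, NR1I2, NR1I3, UROS, NQO1, AHRR and AKR1C2 fall outside this rule and were chosen after their values were seen. Replicate pairs within a group differed by more than counting noise (chi-square per degree of freedom 1.44 to 4.45). Annotation came from GENCODE v29 and upstream sequence from RefSeq (GRCh38.p14).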

Additional observations from a re-analysis of the deposited data

How the results depend on the processing

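Of 84 results for the 12 expressed P450 genes, 12 were called and 7 of these stayed called in every alternative, 70 were called in none, 2 (CYP2U1 and CYP3A5, averaged effect) became called in some, and none reversed. CYP2B6 stayed called in every alternative of the 4 drug comparisons and CYP26B1 in every alternative of bezafibrate over control and of the averaged effect. The log2 fold change of CYP2B6 ranged from 0.56 to 0.61 over control and from 0.58 to 0.62 over ascites. The count of P450 genes called in the combination over ascites fell from 3 to 1 with DESeq2 and ranged from 1 to 3 with a library left out, the 1 without ascites replicate 2. In the combination over control it fell from 2 to 1 with RLE scaling, upper-quartile scaling, only the groups compared and DESeq2, and ranged from 1 to 3 with a library left out. That count was also 1 with the replicate block, because CYP20A1 then had an edgeR adjusted p of 0.0606. Same-numbered libraries did not deviate together (correlation -0.135 to 0.0613 over 18 pairs), so the numbers were not read as pairs, and the replicate block changed no other count. The averaged effect called 3 with DESeq2 in place of 5, and 4 to 7 with a library left out. These counts stand without the share of all genes called in the same alternative. They therefore do not show a shift particular to P450 genes. Without the filter on low counts, CYP26A1 was called in the combination over control in place of CYP20A1. CYP26A1 passed the filter in 10 of the fits with a library left out and was called in that comparison in 8 fits, in the averaged effect in 5 and in bezafibrate over control in 1, and CYP39A1 in the averaged effect in 3. Each gene passed only in fits that kept its highest libraries, all without the drug, so these calls are no separate support. The number of expressed genes was 12 with any library left out, 14 at a threshold of 0.5 CPM and 11 at 2 CPM. Of 46 called results for the named partner genes, 38 stayed called in every alternative and none reversed. These genes were picked because they were called with bezafibrate over control in the same libraries, so this count is no separate support. HSD3B1, which passed the filter only through libraries with the drug, is among them. The causes of the changed calls were not tested. Of the 40 P450 genes outside the fit over all libraries, the fit with no filter tested 22 and called CYP26A1 alone, and the 18 without a count give no value.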

Other observations

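Some P450 genes that the filter on low counts removed are given as raw counts, chosen after their values were seen. CYP1A2, the liver neighbour of CYP1A1, had 1, 5 and 1 counts in the bezafibrate libraries and none in the other 9, the combination included. CYP11A1, which starts steroid synthesis from cholesterol, had 0, 3 and 1 counts in control, 3, 3 and 0 in ascites, 8, 7 and 0 in bezafibrate and 5, 2 and 5 in the combination. CYP4F12, a fatty acid hydroxylase, had 3, 8 and 4 in control, 2, 3 and 6 in ascites, 13, 8 and 7 in bezafibrate and 10, 3 and 9 in the combination. CYP39A1, an oxysterol hydroxylase, had 12, 3 and 4 in control, 9, 7 and 11 in ascites, 3, 5 and 5 in bezafibrate and 7, 3 and 1 in the combination. CYP19A1, the aromatase that makes oestrogens, had 0 to 6 counts per library. In the fit with no filter edgeR called none of these 5 genes in any comparison, with 1 adjusted p value under 0.1, that of CYP39A1 for the averaged effect (-1.02 on the log2 scale, edgeR adjusted p = 0.0836). With a library left out CYP39A1 was called lower for that effect in 3 of the 10 fits that tested it. The filter removed it without control replicate 1 or ascites replicate 3, its highest libraries, so those calls are no separate support.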
